A study of Arabidopsis thaliana with 8 samples.

Results

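The mRNAs that carried multiple ribosomes were compared between Arabidopsis eif3h seedlings and the wild type (WT), using 4 of the 8 arrays of the study: 2 eif3h_polysome arrays and 2 WT_polysome arrays, set against each other by replicate number. In the mutant a T-DNA insertion cuts short the carboxyl-terminal end of eIF3h, a subunit of the translation initiation factor eIF3, and this single insertion allele stood for the loss of function. From both genotypes the aerial part of seedlings was taken after 10 days under continuous light, so that every value is an average over shoot cell types and over pooled seedlings. Extracts were separated on sucrose gradients into polysomal RNA (PL) and non-polysomal RNA (NP), the latter holding free mRNA and monosomes, and replicates 1 and 2 came from RNA preparations made on different days. The remaining 4 arrays, of non-polysomal RNA from the same gradients, entered the fit to estimate the spread and are quoted beside the polysomal values. Each value below is the signal of an Affymetrix ATH1 probe set, a set of short oligonucleotides for 1 transcript, on a linear scale on which each array was scaled to the same trimmed mean. A difference is log2 of the eif3h signal minus log2 of the WT signal, so that 1 is 2-fold.

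Initiation factor eIF3 is a complex of many subunits that binds the small ribosomal subunit, helps to recruit the mRNA and takes part in scanning along the 5′ leader to the start codon. Part of it is shared by all eukaryotes, and the h subunit belongs to the group that budding yeast lacks. In Arabidopsis eIF3h is known for its role on mRNAs whose leaders hold upstream open reading frames (uORFs), short reading frames that ribosomes meet before the main one. A polysomal signal follows both how much of an mRNA the tissue holds and what share of it is loaded with ribosomes, and the 2 cannot be told apart from polysomal RNA alone. Fewer cells of a type and less RNA per cell cannot be told apart either.

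The median signal of the polysomal arrays lay between 185.75 and 211.1, and that of all 8 arrays between 185.75 and 277.0. The 11373 probe sets in the upper 50% by mean log2 signal were tested, and 5972 of these had 1 gene name here. The number of arrays limits the precision. Among tissue markers, root β-glucosidase PYK10 gave 6072 and 9268 in WT and 8712 and 6909 in eif3h, and the guard-cell factor FMA differed by -0.37 (adjusted p = 0.322), so that neither passed the test. Of the other markers in those lists EXPA7 and AT1G62500 of the root lay below the signal limit, and the rest had no named probe set.

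In polysomal RNA 673 of 11373 probe sets rose in eif3h (5.92%) and 865 fell (7.61%), which is 13.5% in all (limma, 2-sided, adjusted p under 0.05, 2 replicates per genotype). The unadjusted p was under 0.05 for 3369. The median rise was 2.04-fold and the median fall 2.19-fold, with a median SE of 0.22 and 0.24 on the log2 scale. Rises of over 4-fold numbered 47 and falls of over 4-fold 95. No probe set past the test had opposite signs in the 2 replicates. The split of the calls depended on the scaling of the arrays: 43.8% of calls were rises with the values as deposited, 47.9% with quantile normalization and 59.99% when each array was centred on its median. The median of all probe sets moved from -0.06 as deposited to 0.06 with centring. Without the replicate number as a block 111 rose and 190 fell.

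The loss of calls when a polysomal array was left out was large, since 1 genotype was then left with 1 array. Without eif3h replicate 1 the test called 134 rises and 201 falls, without eif3h replicate 2 it called 163 and 327, without WT replicate 1 it called 64 and 109, and without WT replicate 2 it called 91 and 174. Of 69 named probe sets that passed, 18 passed with each of the 4 arrays left out in turn. They are TIF3H1, AT1G66100, ECS1, ZW9, CYP71B26, AT4G02540, MES8, HTB11, psaA, AT2G33220, LHCB4.2, AT3G47370, AT3G55170, ICL and probe sets without a single gene name. All eif3h signals of AT1G66100, CYP71B26, AT4G02540 and HTB11, in both fractions, lay below the mean signal required for testing. So did all WT signals of an unnamed probe set in this list. ICL entered the test only through its bright eif3h signals. The calls of these probe sets are given as a description, also where they passed with each array left out.

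**Figure D1:**
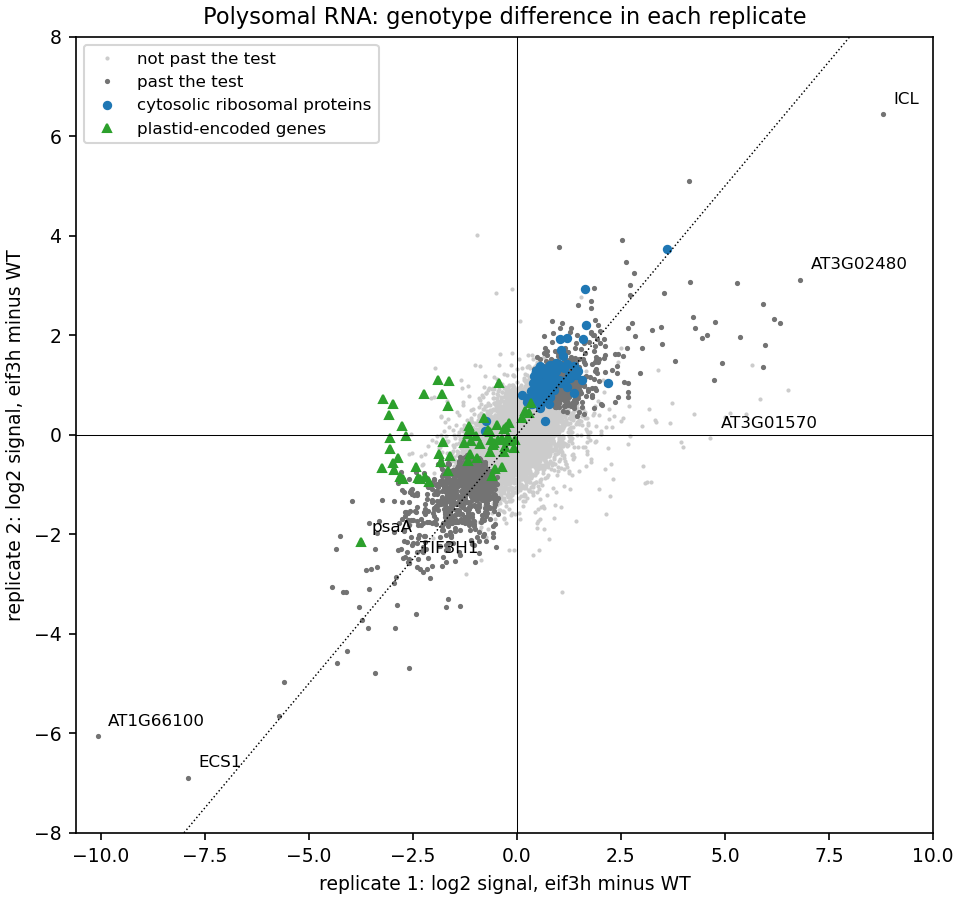
Genotype difference in polysomal RNA (log2 signal, eif3h minus WT) in replicate 1 (horizontal) against replicate 2 (vertical) for the 11373 tested probe sets, with those past the test in dark grey, cytosolic ribosomal proteins in blue and plastid-encoded genes in green; the dotted line marks equal values. Ribosomal proteins lie to the upper right of 0 in both replicates for 113 of 115, whereas the plastid-encoded genes spread to the left in replicate 1 and lie around 0 in replicate 2.

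The 2 replicates gave like but not equal differences. Across probe sets the replicate 1 and replicate 2 differences correlated with r = 0.66 (Spearman rho = 0.63), a description across genes of 1 array platform, which are not independent replicates. The difference was positive in both replicates for 3733 probe sets (32.8%) and negative in both for 4560 (40.1%). Over 2-fold in both replicates, 222 probe sets were higher (1.95%) and 361 were lower (3.17%), and 212 and 352 of these passed the test. Replicate 1 spread more widely, with an SD over probe sets of 0.79 against 0.67 in replicate 2.

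Rises were more frequent among abundant mRNAs. The tested probe sets were split into 4 bins of equal size by mean signal. In the lowest bin 2.57% rose and 5.59% fell, in the next 2.99% and 7.25%, in the third 6.23% and 8.30%, and in the highest, from a mean signal of 1072 upwards, 11.9% and 9.29%. The median SE was 0.29 in the lowest bin and 0.21 in the highest, and its part in the counts was not tested. In that highest bin 338 probe sets rose and 264 fell. Of the cytosolic ribosomal proteins described below, 102 of 115 lay in it.

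The mRNA of the mutated gene, TIF3H1 (AT1G10840), was among the clearest falls. Its polysomal signal was 1277 and 1149 in WT and 213 and 192 in eif3h. The groups did not overlap and the 2 replicates gave the same difference, -2.58 (5.98-fold lower, SE 0.19, limma adjusted p = 0.000357). In non-polysomal RNA it gave 2160.1 and 1732 in WT and 1897 and 1949.6 in eif3h, a difference of -0.01. Whether its probes lie before or after the T-DNA was not known here, so that the fall does not check the labels.

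The mRNAs of the cytosolic ribosome rose together. Of 115 measured ribosomal protein genes 80 rose and 0 fell, against 5.92% and 7.61% over all probe sets. Of the 74 genes of the large subunit 51 rose, with a median difference of 0.86, and of the 41 of the small subunit 29 rose, with a median of 0.94. The median over both subunits was 0.90 (1.86-fold), against -0.06 over all probe sets. The median signal of the 115 was 4529 and 3559 on the WT arrays and 7836 and 6966 on the eif3h arrays.

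The rise was broad and of moderate size. Of the 115 genes 113 were positive in both replicates, and 24 exceeded 2-fold in both, against 1.95% of all probe sets. It was the larger in replicate 2 for 99 genes, with a median of 1.04 there and 0.71 in replicate 1. Without a polysomal array the medians stayed between 0.71 and 1.04, but the number of genes past the test fell to 33 without eif3h replicate 1, 11 without eif3h replicate 2, 7 without WT replicate 1 and 5 without WT replicate 2. Without the replicate block it was 17. Ribosomal proteins of Arabidopsis are encoded by families of near-identical genes, and hybridization of 1 copy to the probes of another was not tested.

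AT3G47370, which encodes small-subunit protein S20, gave 3643 and 2682 in WT and 10989 and 10191 in eif3h, a rise of 1.76 (3.39-fold, SE 0.19, adjusted p = 0.00136). AT5G09510, for S15, gave 1054 and 1055 in WT and 2746 and 2758 in eif3h, a rise of 1.38 (SE 0.21, adjusted p = 0.0054). In both genes each eif3h array was well above each WT array, and the arrays of a genotype lay close to each other. The S27 gene AT2G45710 rose by 1.28 and the S2 gene AT3G57490 by 1.35. In the large subunit AT2G19740, for L31, gave 1425 and 1213 in WT and 3291 and 3263 in eif3h (rise of 1.32, SE 0.19, adjusted p = 0.0043). The L35 gene AT3G55170 rose by 2.28, from 344 and 98.6 to 1066 and 749.9, and the WT arrays differed more from each other than those of eif3h did. A second L35 gene, AT2G39390, rose by 1.57, and the L39 gene AT3G02190 by 1.38.

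The largest rise of a ribosomal protein mRNA was that of AT3G28500, for the acidic stalk protein P2, which gave 60.2 and 151 in WT and 731 and 2021 in eif3h. This is 12.7-fold (log2 3.67, SE 0.80, adjusted p = 0.0196), but the gene did not pass the test without any 1 of the polysomal arrays. All WT signals of AT3G28500, in both fractions, lay below the mean signal that the filter required. It entered the test through its eif3h signals alone, so that its adjusted p is given as a description. The mean was negative for 2 ribosomal protein genes, and both are named here after their values were seen. AT3G49910, for L26, gave 13371 and 16434 in WT and 7824 and 17333 in eif3h (-0.35, adjusted p = 0.422), and AT5G48760, for L13a, had a difference of -0.22 (adjusted p = 0.674). In both, replicate 1 was negative and replicate 2 positive.

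Ribosomal proteins of the organelles did not move as 1 group. Of 10 nuclear genes for plastid ribosomal proteins 0 passed the test in either direction, and their median was 0.03, or -0.18 after quantile normalization. Both measured genes for mitochondrial ribosomal proteins rose, against 5.92% of all probe sets. HLL, which encodes mitochondrial L14 and is required for ovule development, gave 331 and 324 in WT and 810.2 and 1441 in eif3h (rise of 1.72, SE 0.25, adjusted p = 0.00441), and AT5G46160 rose by 1.18 (adjusted p = 0.0164).

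Initiation factors other than eIF3 were on the positive side as well. All 10 measured genes were positive in both replicates, against 32.8% of all probe sets. Of these 3 rose and 0 fell, against 5.92% and 7.61%, and the median was 0.45. AT4G27130, for eIF1, which guards the choice of start codon, gave 1499 and 1869.6 in WT and 6509.7 and 4472 in eif3h (rise of 1.69, SE 0.36, adjusted p = 0.0193). The eIF1 gene AT1G54290 rose by 1.16, from 758 and 707 to 1988 and 1351. AT2G40290, for the α subunit of eIF2, the factor that delivers the initiator tRNA, rose by 1.10, from 698 and 679 to 1276 and 1713. The eif3h arrays lay above the WT arrays for all 3, and the 3 calls were reduced to 1 without eif3h replicate 2 and to 0 without each of the other 3 arrays. AT2G04520, for eIF1A, had a difference of 0.91 that did not pass (adjusted p = 0.0804).

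The 5 measured subunits of eIF3 other than h were all positive in both replicates but 0 of them passed the test, and their differences lay between 0.22 and 0.46. A further eIF1 gene, AT5G54760, named through the study's own list of loci and hence chosen on these samples, rose by 1.22 (adjusted p = 0.00665). Among elongation factors AT5G19510, for a subunit of the nucleotide exchange factor eEF1B, gave 7185 and 7717 in WT and 14929 and 15366 in eif3h (rise of 1.02, SE 0.27, adjusted p = 0.0391). Of the 9 measured genes in the list of the 26S proteasome, which degrades tagged proteins, 1 rose (11.1% against 5.92% of all probe sets), the core subunit gene AT1G79210 (0.77, adjusted p = 0.0486). The proteasome gene PAD2, named through the study's supplementary list and so not among the 9, rose as well and is given below. Of 8 genes of CCT, the chaperonin that folds actin and tubulin, 0 passed in either direction.

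**Figure D2:**
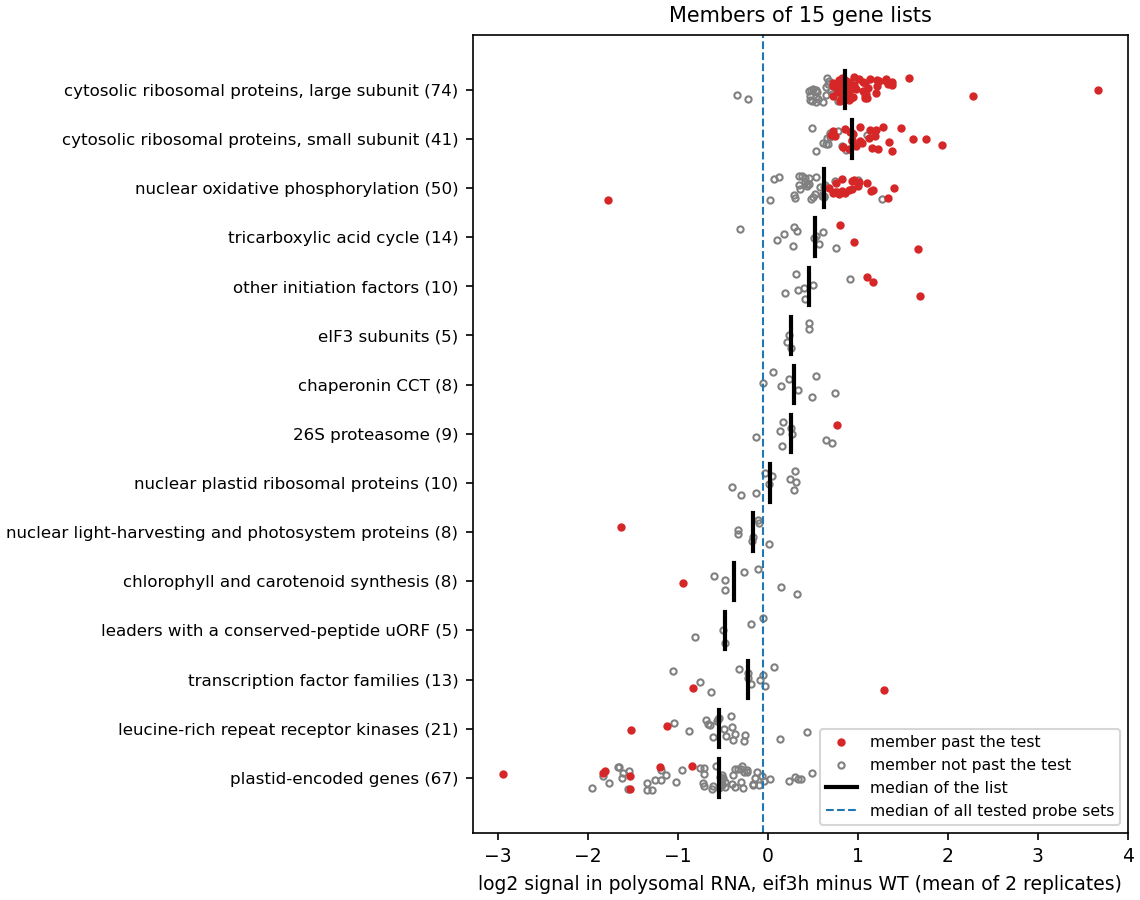
Genotype difference in polysomal RNA (horizontal, log2 signal, eif3h minus WT, mean of 2 replicates) for each measured member of 15 gene lists, with members past the test filled in red, list medians as black bars and the median of all tested probe sets as a dashed line. Both ribosomal subunits and oxidative phosphorylation lie to the right, with medians of 0.94, 0.86 and 0.63, and the plastid-encoded genes and receptor kinases to the left, with medians of -0.54.

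Nuclear genes of mitochondrial respiration rose too. The complexes of oxidative phosphorylation pass electrons to oxygen and use the proton gradient to make ATP. Of 50 measured nuclear genes for their subunits 20 rose and 1 fell, against 5.92% and 7.61% of all probe sets, and the median was 0.63 (0.72 in replicate 1 and 0.57 in replicate 2). Of the 50, 46 were positive in both replicates, against 32.8% of all probe sets. The number that rose was 2, 3, 2 and 1 without eif3h replicate 1, eif3h replicate 2, WT replicate 1 and WT replicate 2, and 2 without the replicate block.

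AT1G51650, for the ε subunit of ATP synthase, gave 4806 and 2095 in WT and 10354 and 6813 in eif3h (rise of 1.40, SE 0.21, adjusted p = 0.00505). AT5G61310, for subunit 5c of cytochrome c oxidase, gave 543 and 434 in WT and 1208 and 1247 in eif3h (rise of 1.34, SE 0.21). AT4G26210, for the g subunit of ATP synthase, rose by 1.16. The exception was AT2G33220, for a subunit of complex I, which gave 2454 and 2095 in WT and 722 and 610.1 in eif3h, so that it fell by 1.77 (log2 difference -1.77, SE 0.22, adjusted p = 0.00243). It was the only gene of the list that was negative, and it was so in both replicates.

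In the tricarboxylic acid cycle 3 of 14 measured genes rose, against 5.92% of all probe sets, and 0 fell. The median was 0.52. The 3 encode subunits of succinyl-CoA ligase, the step of the cycle that makes a nucleoside triphosphate directly. The α subunit gene AT5G08300 gave 1260.4 and 1295 in WT and 3053 and 5436 in eif3h (rise of 1.67, SE 0.25, adjusted p = 0.00441). The second α subunit gene, AT5G23250, rose by 0.95, from 618 and 576 to 1142 and 1167, and the β subunit gene AT2G20420 by 0.80, from 1460.3 and 1504 to 2592 and 2568. In all 3 the WT arrays lay within a narrow range below those of eif3h. The number past the test was 1 without eif3h replicate 1, without eif3h replicate 2 or without WT replicate 1, and 0 without WT replicate 2.

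The genes of the plastid genome, whose mRNAs are translated by the plastid's own ribosomes, were on the negative side, but unequally in the 2 replicates. Of 67 measured genes 7 fell and 0 rose, a share of 10.4% against 7.61% of all probe sets. The median difference was -0.54, with 61 genes negative. In replicate 1 the median was -1.14 and 37 genes were over 2-fold lower, whereas in replicate 2 the median was -0.12, 1 gene was over 2-fold lower and 3 were over 2-fold higher. Without eif3h replicate 1 the median was -0.06 and 1 gene passed, and without eif3h replicate 2 the median was -1.19 and 36 passed. Without WT replicate 1, without WT replicate 2 or without the replicate block 1 gene passed.

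The decrease held in both replicates most clearly for psaA, which encodes a core protein of photosystem I. It gave 6318 and 4468 in WT and 473 and 1002 in eif3h, so that it fell by 2.95 (log2 difference -2.95, 7.72-fold, SE 0.34, adjusted p = 0.00153). It was the plastid gene that passed whichever polysomal array was left out. psbD, for the D2 protein of photosystem II, gave 2599 and 2436 in WT and 566 and 1347 in eif3h (log2 difference -1.53, adjusted p = 0.0151). ndhA, for a subunit of the plastid NADH dehydrogenase-like complex, had a difference of -1.53 and atpH, for the membrane ring of plastid ATP synthase, one of -1.20 (adjusted p = 0.0356 and 0.0359). The others past the test were psbK, accD and ndhK, named here after their values were seen, with differences of -0.85, -1.81 and -1.84.

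The groups of plastid genes differed in their medians. The 20 psa and psb genes of the photosystems had a median of -0.71, with 3 past the test. The 10 ndh genes had the lowest, -1.44, with -2.22 in replicate 1 and -0.44 in replicate 2. The 14 rps and rpl genes of the plastid ribosome had a median of -0.22 with 0 past the test, and it turned from -0.57 in replicate 1 to 0.34 in replicate 2. The 3 rpo genes of the plastid RNA polymerase had a median of 0.23. These differences between groups were not tested. In non-polysomal RNA the 67 genes had a median of 0.46, with 0.55 and 0.36 in the 2 replicates, and 7 rose and 0 fell there.

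**Figure D3:**
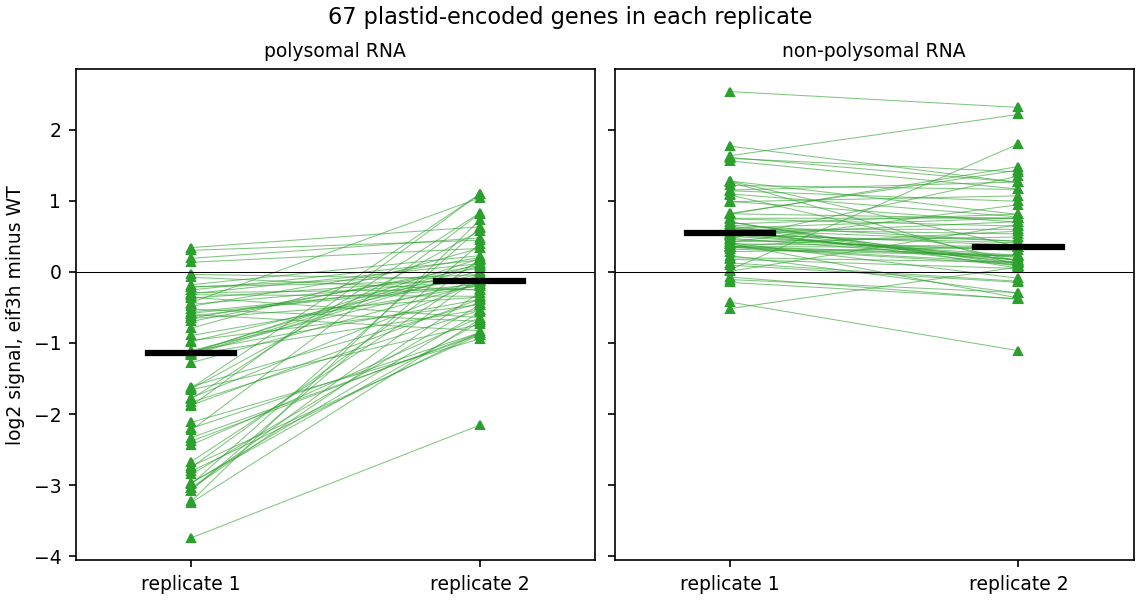
Genotype difference (vertical, log2 signal, eif3h minus WT) of the 67 plastid-encoded genes in replicate 1 and replicate 2, joined by a line per gene, in polysomal RNA (left) and non-polysomal RNA (right); black bars are medians. In polysomal RNA the median is -1.14 in replicate 1 and -0.12 in replicate 2, and in non-polysomal RNA it is 0.55 and 0.36.

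The lists of nuclear genes of photosynthesis held few calls. Among 8 measured genes of the light-harvesting complexes and photosystems 1 fell (12.5% against 7.61%), LHCB4.2, for the antenna protein CP29. It gave 24003 and 19828 in WT and 7084 and 7029 in eif3h, so that it fell by 1.63 (log2 difference -1.63, SE 0.19, adjusted p = 0.00161), and -2.74 in non-polysomal RNA. The other 7 had differences between -0.34 and 0.01. Of 4 Calvin cycle genes 0 passed. In chlorophyll and carotenoid synthesis 1 of 8 fell, the same share, namely CHLM, a methyltransferase of the chlorophyll branch, which gave 7637 and 6016 in WT and 3326 and 3761 in eif3h (log2 difference -0.94, adjusted p = 0.0223). CHLM did not pass without any 1 of the polysomal arrays.

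Leucine-rich repeat receptor kinases, which sense peptides, hormones and pathogen molecules at the cell surface, lay on the negative side. Of 21 measured genes 19 were negative, 18 of them in both replicates, against 40.1% of all probe sets. The 2 that fell are 9.52% of the list, near the 7.61% over all probe sets, and 0 rose. The median was -0.54. AT3G28040 gave 2238 and 2348 in WT and 689 and 919.7 in eif3h (log2 difference -1.53, SE 0.20, adjusted p = 0.00254), and AT1G12460 gave 419 and 277 in WT and 171 and 142 in eif3h (-1.13, adjusted p = 0.0286). Without WT replicate 1 neither passed, and without each of the other polysomal arrays 1 did. Among 13 genes of transcription factor families 1 rose and 1 fell, 7.69% each way against 5.92% and 7.61% of all probe sets. AGL26, a MADS-box gene, gave 329 and 585 in WT and 990.0 and 1165 in eif3h (rise of 1.29, adjusted p = 0.017), but did not pass without any 1 of the polysomal arrays. The MYB gene AT5G47390 had a difference of -0.83 (adjusted p = 0.0424).

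Leaders whose uORF encodes a conserved peptide are of interest because of the known role of eIF3h. The 5 genes of this class in the list all had negative means, but 0 passed the test. The median was -0.48, with -0.26 in replicate 1 and -0.53 in replicate 2, and the median in non-polysomal RNA was 0.15. BZIP53, a basic leucine zipper factor, gave 1024 and 1395 in WT and 842 and 844 in eif3h (-0.50, SE 0.23, adjusted p = 0.187). AT5G15950 and SAMDC, for S-adenosylmethionine decarboxylase of polyamine synthesis, had differences of -0.81 and -0.19, AT5G09460 one of -0.48 and bZIP44 one of -0.06. GBF6, whose leader also holds a conserved uORF, was named through the study's supplementary list and was therefore not among the 5. Its polysomal signal rose, as given below, so that the class did not move as 1 group.

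The polysomal signals of the 2 measured genes whose leaders the study tested moved in opposite directions. Both leaders hold several uORFs, and by the ratio of the 2 fractions the study counted both mRNAs as less translated in the mutant. Here the polysomal minus the non-polysomal difference was -0.60 for GBF6 and -1.11 for LHY, and neither passed (limma adjusted p = 0.397 and 0.279). GBF6 (AT4G34590), the AtbZip11 of the study and a basic leucine zipper factor, gave 609 and 790.2 in WT and 1331 and 1443 in eif3h. Its rise was 0.999 (2-fold, SE 0.21, adjusted p = 0.0188). In non-polysomal RNA it rose by 1.60, from 1257 and 2153 to 4039.9 and 6185. LHY (AT1G01060), a MYB factor of the circadian clock, gave 5332 and 2464 in WT and 1570.3 and 1426 in eif3h (log2 difference -1.28, SE 0.29, adjusted p = 0.0221), and -0.16 in non-polysomal RNA. Its WT arrays differed more from each other than the eif3h arrays did. GBF6 and LHY both failed to pass without eif3h replicate 1, WT replicate 1 or WT replicate 2.

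Among the other loci that had been followed by quantitative PCR, CCA1, the partner of LHY, gave 3397 and 615 in WT and 1019 and 734 in eif3h. The replicates went opposite ways, with -1.74 and 0.26, and it did not pass (adjusted p = 0.291). The proteasome gene PAD2 rose by 1.07, from 537 and 636 to 1023 and 1468 (adjusted p = 0.018). GRF8, a 14-3-3 protein, VTI1B, a protein of vesicle fusion, and ACO3, an aconitase, did not pass in polysomal RNA (-0.45, -0.29 and 0.08). These loci were chosen by the study on these samples and are no independent evidence of a direction.

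The 12 largest falls lay between -8.07 and -3.65 and the 12 largest rises between 3.61 and 7.63, and 3 of the falls and 8 of the rises came from probe sets without a single gene name here. AT1G66100, which encodes a thionin, a small antimicrobial peptide, had the lowest mean difference. It gave 12951 and 3009.5 in WT and 12 and 45.2 in eif3h (log2 difference -8.07, SE 0.78, adjusted p = 0.000872). The signal of 12 lay below the 20th percentile of its array (34.8), so that the size of the fall is uncertain. All eif3h signals of AT1G66100, in both fractions, lay below the mean signal that the filter required. It entered the test through its WT signals alone, so that its adjusted p is given as a description. ECS1, a cell wall protein linked to pathogen resistance, gave 22494 and 20306 in WT and 94.2 and 171 in eif3h (168-fold lower, -7.39, SE 0.28, adjusted p = 6.0e-06). In replicate 1 the difference was -10.08 for AT1G66100 and -7.90 for ECS1, and in replicate 2 it was -6.06 and -6.89, so that their order is not settled. These 2 mRNAs were bright in WT and lay below the median signal of the arrays in eif3h, and both were lower in non-polysomal RNA as well (-5.42 and -6.44).

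All 5 measured genes of the defence list passed, 4 of them as falls, against 5.92% rises and 7.61% falls over all probe sets. The list includes AT1G66100 and ECS1, described above, and was chosen with earlier results of these data known. The thionin gene THI2.2 gave 5201 and 1665 in WT and 793 and 435 in eif3h (-2.32, adjusted p = 0.00748), and PDF1.2b, a defensin, gave 477 and 2006 in WT and 115 and 1020.5 in eif3h (-1.51, adjusted p = 0.0101). The PDF1.2b signals of the 2 days overlapped between genotypes, and the fall was seen within each day. OSM34, an osmotin of the thaumatin family, went the other way, from 112 and 325 to 2088 and 1668 (rise of 3.29, SE 0.51, adjusted p = 0.0057). AT3G44630, a resistance protein of the TIR-NBS-LRR class, was among the 12 largest falls (826 and 602 in WT, 46 and 67.1 in eif3h, -3.67). Its eif3h signals, in both fractions, lay below the mean signal that the filter required, so that its call too is a description.

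Further large falls were HTB11, a histone H2B gene, with 1564 and 1209 in WT and 118 and 92.1 in eif3h (-3.72, SE 0.23, adjusted p = 8.7e-05). ZW9 gave 3907 and 1964 in WT and 196 and 82.2 in eif3h (-4.45), and MES8, of the methyl esterase family, gave 3806 and 3142 in WT and 319 and 213 in eif3h (-3.73). In each of these the eif3h arrays lay far below the WT arrays. Of 6 measured histone genes HTB11 and the linker histone gene HON4 (-0.80) fell, and HIS1-3, a linker histone induced by drought, rose by 1.49, from 695 and 404 to 2499.7 and 884. Over all probe sets 7.61% fell and 5.92% rose. CYP71B26, a cytochrome P450, was the only 1 of 5 such genes to pass, with -4.10. AT3G47250 had a difference of -5.28 in polysomal and -7.38 in non-polysomal RNA. For HTB11, CYP71B26 and AT3G47250 all eif3h signals, in both fractions, lay below the mean signal that the filter required. These genes entered the test through their WT signals alone, so that their calls are given as a description.

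The rise with the highest mean was that of ICL, isocitrate lyase, the enzyme of the glyoxylate cycle that seedlings use while they live on stored oil. Its signal was 17.4 and 9.1 in WT, below the 20th percentile of those arrays (35.6 and 45.8), and 7806 and 794 in eif3h. The fitted difference was 7.63 (SE 0.88), and its size rests on the dim WT signals. ICL entered the test only through its bright eif3h signals, so that its call (adjusted p = 0.0016, or 0.0784 without the replicate block) is given as a description. In non-polysomal RNA ICL gave 452 and 6.5 in WT and 62921 and 5605 in eif3h. The other 2 measured genes of fatty acid breakdown, SDP1 and AIM1, had differences of -0.36 and -0.22.

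Of 3 measured genes of late embryos 1 rose, against 5.92% of all probe sets. AT3G02480, for a late embryogenesis abundant protein, gave 217 and 138 in WT and 24343 and 1201 in eif3h (rise of 4.96, SE 0.87, adjusted p = 0.00899). It did not pass without eif3h replicate 1 or without WT replicate 1. LEA4-5 gave 122 and 69.2 in WT and 5522 and 92.9 in eif3h, and the oleosin gene AT3G01570, for a coat protein of oil bodies, gave 157 and 44.1 in WT and 3954 and 42.2 in eif3h. Neither of these passed (adjusted p = 0.104 and 0.271). The median of the 3 was 5.50 in replicate 1 and 0.42 in replicate 2. AT3G17520, of the same protein family, was among the 12 largest rises with 99.9 and 75.5 in WT and 6068 and 195 in eif3h (3.65, adjusted p = 0.0487). It too entered the test through the eif3h arrays, since both WT signals lay below the mean of 215 that the filter required.

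**Figure D4:**
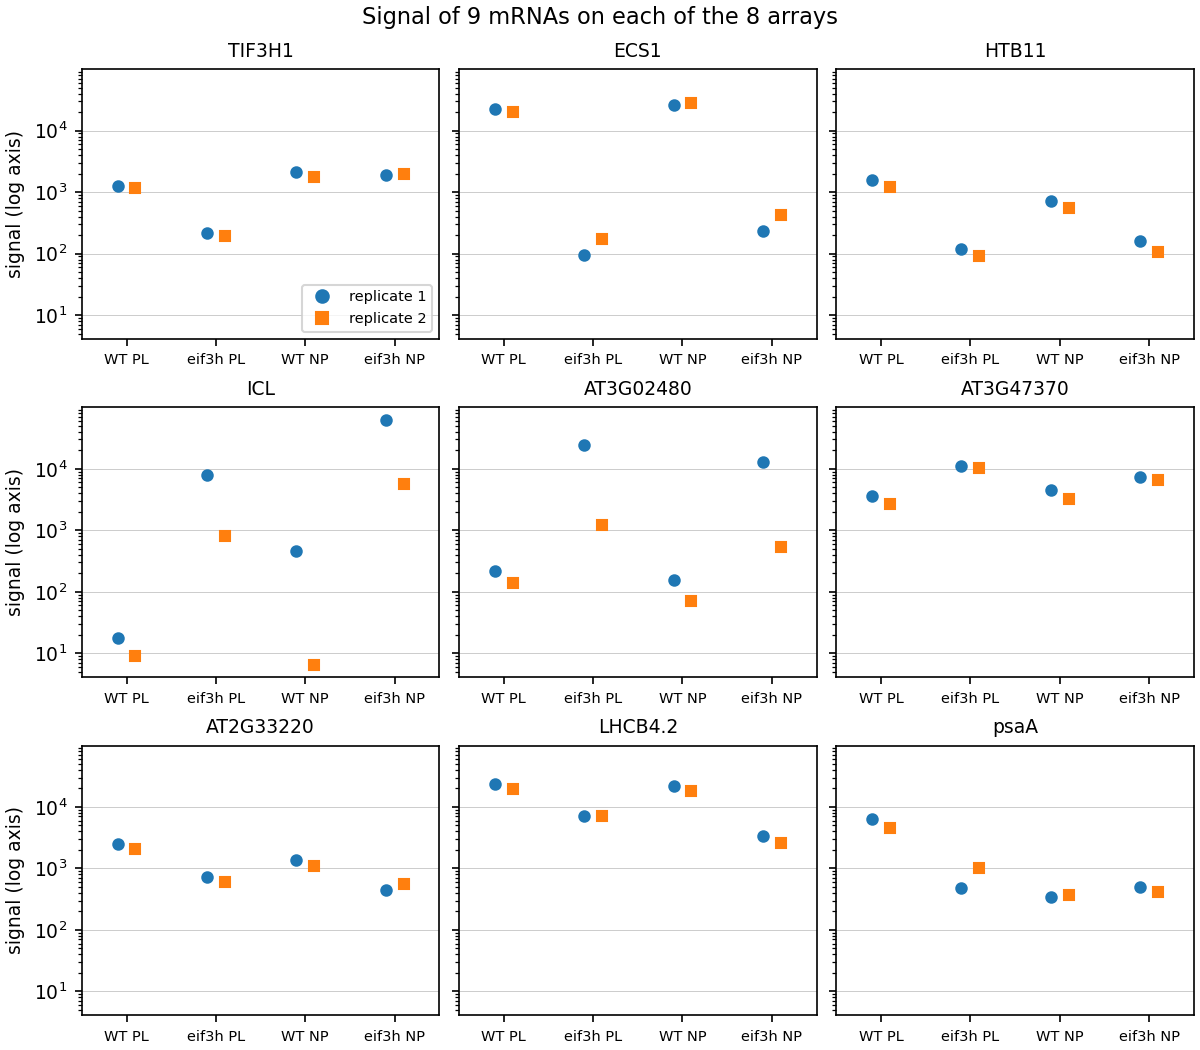
Signal (vertical, log axis, linear MAS 5.0 units) of 9 mRNAs on each of the 8 arrays, with replicate 1 as circles and replicate 2 as squares, for polysomal (PL) and non-polysomal (NP) RNA of each genotype. TIF3H1 is lower in eif3h in polysomal RNA alone, ECS1, HTB11 and LHCB4.2 in both fractions, and AT3G02480 and ICL stand apart most in eif3h replicate 1.

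Smaller lists held few calls, to be set beside 5.92% rises and 7.61% falls over all probe sets. Of 4 flavonoid genes DFR and UF3GT rose, by 1.48 (564 and 192 in WT, 1162 and 724 in eif3h) and 1.14. Both gave lower signals in replicate 2, and the rise was larger there. Of 10 expansin and xyloglucan enzyme genes, which loosen or remodel cell walls, EXPA20 and EXPA4 rose by 1.91 and 0.79 and EXGT-A3 fell from 2447 and 2389 to 600.1 and 1129.5 (-1.55, adjusted p = 0.0101). COR15A, a cold-regulated chloroplast protein, rose by 2.03 and MT1C, a metallothionein, by 1.20. Of 8 tubulin and actin genes, 5 glutathione transferases, 3 glucosinolate genes, 3 heat shock proteins and 3 peroxidases 0 passed in either direction.

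Differences seen in 1 replicate only were counted as over 2-fold in 1 replicate and within 0.25 of 0, or of opposite sign, in the other. In replicate 1 only, 134 probe sets were higher (1.18%) and 129 lower (1.13%). In replicate 2 only, 45 were higher (0.396%) and 100 lower (0.879%). Of these differences 0 passed the test and 0 were ribosomal proteins. Plastid-encoded genes made up 18 of the 129 lower in replicate 1 only, and 3 of the 45 higher in replicate 2 only.

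The largest of those lower in replicate 1 only were plastid genes. rpl14 gave 6356 and 2946 in WT and 678 and 4874 in eif3h, so that it was -3.23 in replicate 1 and 0.73 in replicate 2. rpl16 was -2.99 and 0.61, ndhE was -3.08 and 0.39, and ndhG, with 555 and 547 in WT and 67.4 and 522 in eif3h, was -3.04 and -0.07. For ndhG the array that stood apart was eif3h replicate 1. The corresponding non-polysomal signals of that gradient did not fall, and rpl14 gave 4998 in WT and 9901 in eif3h there.

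Several other differences of this kind lay in a WT array rather than in an eif3h array. The chitinase gene AT2G43620 gave 61 in WT replicate 1 and 1532 in WT replicate 2, against 967 and 1289 in eif3h. AT1G47400, for a peptide of the iron deficiency response, gave 4113 and 674 in WT and 3822 and 5166 in eif3h, so that its rise of 2.94 in replicate 2 came with a low WT array. AT5G20790 gave 58.1 and 2377 in WT and 122 and 268 in eif3h. The oleosin gene AT3G01570 and AT1G15330 (140.2 and 179 in WT, 1788 and 210.2 in eif3h) were instead high in eif3h replicate 1 alone, and the senescence marker SEN1 was low in eif3h replicate 2 (1743 and 3040.5 in WT, 1530.4 and 612 in eif3h).

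The non-polysomal RNA of the same gradients gave values to set beside those of polysomal RNA. There 961 probe sets were higher in eif3h (8.45%) and 984 lower (8.65%), with a median of 0.10 over all. The ribosomal proteins had a median of 0.28 in non-polysomal and 0.90 in polysomal RNA, and 31 rose and 5 fell in non-polysomal RNA. Their median signal there was 4678 and 3678 in WT and 5176 and 4216 in eif3h. Oxidative phosphorylation had 0.24 and 0.63 in the same order, the initiation factors other than eIF3 0.64 and 0.45, the receptor kinases 0.16 and -0.54, nuclear plastid ribosomal proteins -0.64 and 0.03, and chlorophyll and carotenoid synthesis -0.92 and -0.37. The difference between fractions was not tested for lists. All 12 of the largest rises and all 12 of the largest falls in polysomal RNA had the same sign in non-polysomal RNA.

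**Figure D5:**
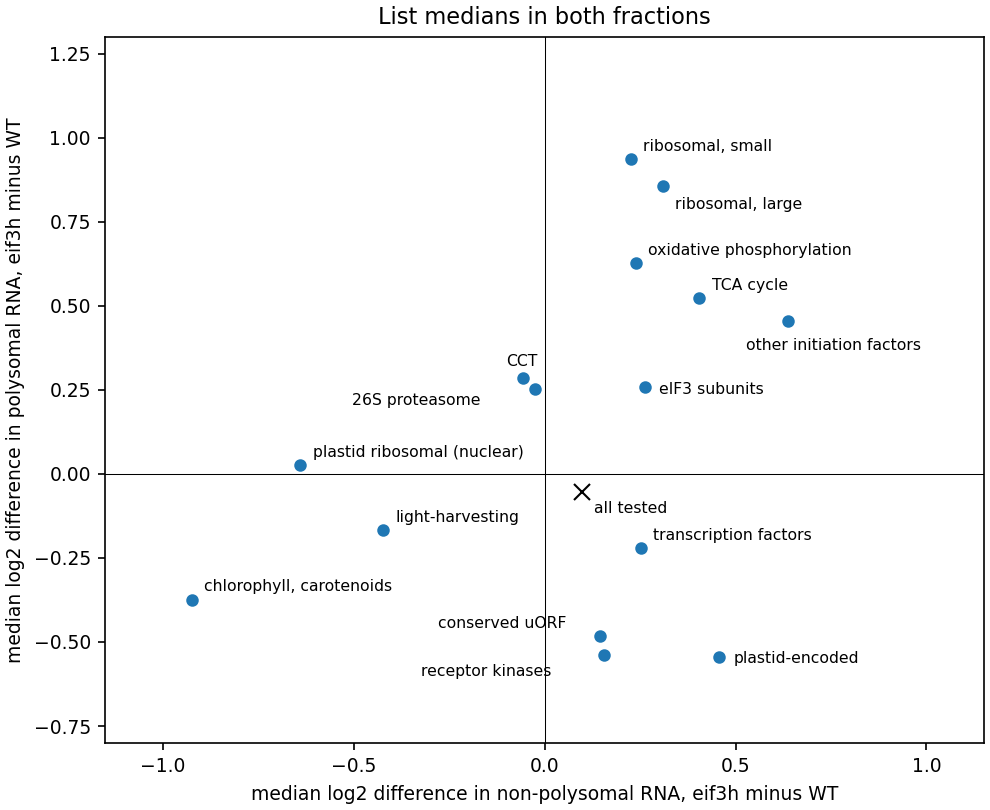
Median genotype difference (log2 signal, eif3h minus WT) of the 15 gene lists in non-polysomal RNA (horizontal) against polysomal RNA (vertical), with the median of all tested probe sets as a cross. Both ribosomal lists lie near 0.9 in polysomal RNA and below 0.32 in non-polysomal RNA, and the plastid-encoded genes at 0.46 in non-polysomal and -0.54 in polysomal RNA.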

How the data were processed

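The 8 ATH1 arrays form 4 groups of 2, by genotype and gradient fraction. The authors processed each array with Affymetrix MAS 5.0 and scaled the arrays to the same intensity, and the deposited values are linear signal intensities, 1 for each probe set, with a mean of 500 once the highest and lowest 2% of values are trimmed. Detection calls were not used here.

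The 64 control probe sets were left out. Signals were taken as log2 with no offset, and the upper 50% of 22746 probe sets by mean log2 signal (a geometric mean of 215 or more) were kept. A probe set could pass this filter through the bright signals of 1 genotype alone. The adjusted p of such a probe set, whether it rose or fell, is a description. Of these 11373, 5972 had 1 gene in the platform table and RefSeq TAIR10.1 (used for names alone), 345 were named through the study's supplementary list of loci, 224 had several genes and 4814 had no name here. Gene lists used only the first kind and the probe set of highest signal per gene (5948 genes), and the measured genes of a list are counted among these. Of the 345 probe sets named through the supplementary list 44 rose and 117 fell, against 400 and 422 of the 5972. The counts of the gene lists therefore leave out genes that the study had listed as changed. The 8 arrays were fitted in R 4.3.3 with limma 3.58.1 (lmFit, eBayes with a variance trend). The design held the 4 groups and a block for the replicate number, which left 3 residual degrees of freedom. The Benjamini-Hochberg adjusted p had to be under 0.05, 2-sided. Tables and figures were made in Python 3.11.15 with pandas 2.3.3 and matplotlib 3.10.9.

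The replicate number marks the preparation day, and also the day and instrument of scanning. Deviations from the group means were shared by arrays of 1 number (r from 0.33 to 0.68 over pairs of groups, 0.40 for the polysomal pair), so the number pairs the samples. In simulated data of 11373 probe sets with 200 changed, the polysomal contrast found 43% of the 2-fold changes (log2 of 1) and 97% of those with log2 of 2, and made 10 false calls. The simulated noise was independent between arrays, and the simulated day effect was equal in all groups. The 10 false calls therefore check the fit and do not measure the error rate in the real arrays.

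Members, lists and the comparison were chosen with earlier results of these data known. Named genes were the 12 largest rises and falls past the test with 1 sign in both replicates, up to 4 members with the smallest p of each list with at least 3 measured, the mutated gene, the leaders and loci the study had followed, and the 4 largest differences per replicate and direction seen in 1 replicate only. A gene outside this rule is named where a small count called for it, after its values were seen. Alternatives were other scalings, an offset of 32, other signal filters, other fits and leaving out each polysomal array. No gene sequence was used.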

Additional observations from a re-analysis of the deposited data

Results flagged for a closer look

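In 6 probe sets the genotype difference in polysomal RNA differed from the one in non-polysomal RNA by a test of that difference itself (limma, adjusted p from 0.0419 to 0.0464 over all probe sets). For TIF3H1 the polysomal minus the non-polysomal difference was -2.57, with the values given above. AT2G15560 gave 126 and 139 in WT and 832 and 981 in eif3h in polysomal RNA, a rise of 2.77, and 63 and 177 in WT and 13084 and 13867 in eif3h in non-polysomal RNA, a rise of 6.99, so that the value was -4.22. AT5G55600 fell in polysomal RNA, from 402 and 364 to 120.1 and 106, and rose in non-polysomal RNA by 0.86, which gave -2.62. A further probe set, with no gene name here, had -0.17 in polysomal and 2.50 in non-polysomal RNA, which gave -2.67. AT3G14600, for ribosomal protein L18a, had 0.50 in polysomal RNA, which did not pass, and fell in non-polysomal RNA from 17155 and 12021 to 5176 and 3491, which gave 2.25. AT5G18800, for a complex I subunit, rose in polysomal RNA by 0.79, from 1518 and 1362 to 2753 and 2244, and fell in non-polysomal RNA by 1.28 (log2 difference -1.28), which gave 2.07. All WT signals of AT2G15560, in both fractions, lay below the mean signal that the filter required. It entered the test through its eif3h signals alone, so that its call is given as a description. In each of the 6 both replicates of each fraction are values of the same 2 preparation days. No group had the 4 samples that a check for outlying samples needs.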

How the results depend on the processing

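Among the 15 alternatives only other scalings, the offset and a left-out array changed the difference of a probe set. The other signal filters and other fits left it as it was, so that its direction could not change there. No named probe set that passed the test changed direction in the former, and all calls already had 1 sign in both replicates. Leaving out 1 polysomal array gave 64 to 163 rises and 109 to 327 falls, against 673 and 865. Without the replicate block there were 111 rises and 190 falls, and with the polysomal arrays alone and no replicate block 40 and 117. With the polysomal arrays alone and the block there were 905 and 1188, from 1 residual degree of freedom. Quantile normalization gave 481 rises and 523 falls, centring on the array median 898 and 599, and the gradient as a random block beside the replicate block 673 and 863. The median of all probe sets was 0.01 after quantile normalization. Without the filter on signal 723 probe sets were over 2-fold higher and 1129 lower in both replicates, and among the 5687 of highest signal 129 and 179. Those over 2-fold in 1 replicate only numbered 1200 (higher) and 943 (lower) in replicate 1 and 822 and 1320 in replicate 2 without the filter. Among the 5687 of highest signal they numbered 50 and 77 in replicate 1 and 22 and 35 in replicate 2. After centring 84 were higher and 63 lower in replicate 2 only. Of the 69 named probe sets with a call 41 lost it without the replicate block, 8 after quantile normalization, and 38, 23, 43 and 40 without eif3h replicate 1, eif3h replicate 2, WT replicate 1 and WT replicate 2. With fewer arrays the test has fewer degrees of freedom. The cause of the other shifts was not tested. Signals near the lower limit of an array, such as ICL in WT, leave the size of a fold uncertain.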

Other observations

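Some small gene families outside the lists were described after their values were seen, with no test of the family. Over all probe sets 5.92% rose and 7.61% fell. Of 6 measured LSM genes, whose proteins form rings that bind mRNA for decay or the U6 RNA for splicing, 3 rose. LSM3B gave 351 and 298 in WT and 881 and 840 in eif3h in polysomal RNA, a rise of 1.41, and differed by -0.11 in non-polysomal RNA. LSM6A rose by 0.98 and LSM1B by 0.90, whereas LSM1A had a difference of -0.16. Of 9 ATG8 genes, whose small proteins mark the membranes of autophagy, ATG8B, ATG8D and APG8A rose, by 1.53, 1.20 and 0.78. ATG8B gave 252 and 244 in WT and 768 and 671 in eif3h. ATG8E had a difference of -0.90 that did not pass. Of 5 measured NRPB genes for subunits of RNA polymerase II and its relatives NRPB12 and NRPB6B rose, by 1.44 and 0.89, and all 5 had positive means.

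Other families held rises and falls at once. Among 4 MSRB genes, for methionine sulfoxide reductases that repair oxidized proteins, MSRB6 gave 2979 and 1754 in WT and 263 and 269.8 in eif3h, a log2 difference of -3.10, and MSRB5 rose by 1.12, from 1273 and 2052 to 3152 and 3904. Among 7 SWEET sugar transporter genes SWEET1 rose by 1.21, from 627 and 721 to 1458 and 1655, and SWEET2 had a difference of -1.67, from 789.9 and 448 to 177 and 196. The genotypes did not overlap for these genes, which were picked for their calls, whereas those of MSRB9 and SWEET11 did. The share of probe sets without overlap was not counted over all probe sets. Of 3 measured peroxidases AT5G64120 gave 52.6 and 1478 in WT and 1832 and 2008 in eif3h, a difference of 2.78 that did not pass (limma adjusted p = 0.074).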
